A study of Mus musculus with 24 samples.

Results

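Tbx2, Tbx3, Tbx4 and Tbx15 are 4 genes of the T-box family of transcription factors, followed here in a mouse mammary carcinoma line that was made to express the chemokine receptor Ccr7 and sorted for the surface glycoprotein podoplanin (PDPN). They were taken by gene symbol and Ensembl identifier, and the set was chosen by measured counts of Tbx4 in these libraries: Tbx4 had been seen to fall stepwise from the vector control to CCR7 and to CCR7-PDPN cells, and Tbx2 was added as its neighbour on chromosome 11. All 4 had a row among the 55471 genes listed for batch 1, and 3 of them (Tbx3, Tbx4 and Tbx15) had a row among the 13915 genes listed for batch 2, where every listed gene had at least 10 counts in some library. The same 3 passed the filter on low counts in both batches, and Tbx2 did not.

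Polyadenylated RNA was sequenced from 24 libraries of EO771 cells, a mammary tumour line from C57BL/6 mice, in 2 batches. Every population carried a retroviral pLNCX2 vector with the red fluorescent protein tdTomato. X2 cells carried the vector without a receptor, and cells given mouse Ccr7 cDNA were sorted for tdTomato and CCR7. The latter were then sorted by PDPN, which had risen spontaneously, into a negative fraction (CCR7 here) and a positive fraction (CCR7-PDPN), so the comparison of these is between opposite sorts. X2-PDPN cells were sorted from X2 for high PDPN. The cells were kept under G418 selection. Each population sequenced in a batch gave 4 libraries. X2 and CCR7-PDPN cells were in both batches. The 4 libraries of a population were technical replicates, so p-values measure the spread between libraries of 1 population and not between independently made populations. CCR7 cells appeared in batch 1 alone and X2-PDPN cells in batch 2 alone, and all comparisons were made within a batch.

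T-box factors share a DNA-binding domain, the T-box, and act in a dose-sensitive way during the formation of limbs, heart, lung and mammary gland. Tbx2 and Tbx3 act mostly as repressors and are known for silencing inhibitors of the cell cycle. Tbx4 is known for the growth of the hindlimb and of the lung mesenchyme, and Tbx15 for skeletal and dermal mesenchyme.

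The smallest library of batch 1 held 22275468 counts and the largest 33395418, and those of batch 2 held 22788542 and 35721027. Ccr7 stood at 2800 to 3178 CPM (counts scaled to library size, group means) in the populations given Ccr7 and at 0.341 to 0.660 in the others. Pdpn stood at 24.6 to 25.6 CPM in the sorted populations and at 0.0618 to 0.413 in the others, so both genes followed the labels. Of the markers of the line, Krt8 (a simple epithelial keratin) had 415 to 575 TPM (a transcript level scaled for gene length and library size) and Vim (vimentin) 1762 to 2382 TPM. Krt18, the usual partner of Krt8, had at most 9 counts and Epcam at most 2 in any batch 1 library.

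Tbx4 (ENSMUSG00000000094) lies on the plus strand of chromosome 11, at chr11:85886422-85916097 of GRCm38, with an exonic length of 3401 bases. GENCODE gives it 3 transcripts that start at 85886422, 85890063 and 85896765, and the counts per gene do not separate them. The last of these is the RefSeq start. The 250 bases before it (RefSeq, GRCm38.p6, chr11:85896515-85896764, plus strand) are printed because Tbx4 is the member whose level fell. They lie within the span of the 2 longer transcripts, and capitals mark the 6 CG dinucleotides, the sites at which mammalian DNA is methylated.
Tbx4 upstream: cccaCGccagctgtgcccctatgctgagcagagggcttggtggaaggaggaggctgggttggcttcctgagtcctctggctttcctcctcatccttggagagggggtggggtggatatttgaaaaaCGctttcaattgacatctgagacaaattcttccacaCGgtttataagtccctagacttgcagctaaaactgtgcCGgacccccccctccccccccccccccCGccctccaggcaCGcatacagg
The core element bound by T-box proteins, AGGTGTGA or its reverse complement TCACACCT, was not in the 300-base RefSeq window of Tbx4, and 1.28% of all 32851 RefSeq windows held it. The Tbx4 window had a GC share of 59.0% and 8 CG, against medians of 52.7% and 7 over all windows.

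Tbx4 was at a low but steady level in the vector control and close to the limit of counting in CCR7-PDPN cells. In batch 1 the 4 X2 libraries had 6.35, 6.13, 6.97 and 6.85 TPM, the 4 CCR7 libraries 1.60, 1.39, 1.23 and 1.65 TPM, and the 4 CCR7-PDPN libraries 0.172, 0.244, 0.153 and 0.181 TPM. The 3 groups did not overlap, and the order was X2, CCR7, CCR7-PDPN in every pairing of libraries. As read counts, X2 libraries had 134 to 200, CCR7 libraries 33 to 47 and CCR7-PDPN libraries 4 to 7. Means were 6.58 ± 0.399 TPM (SD, n = 4), 1.46 ± 0.197 TPM and 0.188 ± 0.0393 TPM.

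From the summed counts, Tbx4 was 4.63-fold lower in CCR7 than in X2 (95% interval 3.88 to 5.55) and 7.62-fold lower in CCR7-PDPN than in CCR7 (4.81 to 12.7). Against X2, the level in CCR7-PDPN was 35.3-fold lower (22.9 to 57.3). The intervals cover counting error only. The fitted log2 fold changes were -2.18 (SE 0.12), -2.89 (SE 0.24) and -5.07 (SE 0.18). These contrasts chose the gene, so they are a description and were not tested. Among all 13261 genes tested in batch 1, 3.18%, 2.6% and 5.36% were called lower in the same comparisons (more than 1 log2 unit of change, with an adjusted p under 0.05). In bulk samples, fewer cells that express a gene and less RNA per cell cannot be told apart.

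Batch 2 held the sorted vector control. In it the 4 X2 libraries had 6.07, 6.77, 6.40 and 5.81 TPM of Tbx4, the 4 X2-PDPN libraries 6.31, 5.99, 6.75 and 5.35 TPM, and the 4 CCR7-PDPN libraries 0.0955, 0.175, 0.207 and 0.158 TPM. The X2 and X2-PDPN libraries overlapped, and every CCR7-PDPN library lay below all of them, with 2 to 6 counts each. Tbx4 was therefore near its X2 level in cells selected for PDPN without Ccr7. The difference between X2-PDPN and X2, which the choice of members did not use, was -0.04 on the log2 scale (SE 0.09, adjusted p = 0.733, quasi-likelihood test of edgeR, Benjamini-Hochberg adjusted). By summed counts X2-PDPN was 1.04-fold lower, with a 95% interval from 0.929 to 1.15, which bounds the change without showing that there was none. The 2 comparisons that used CCR7-PDPN gave 38.4-fold lower than X2 (23.8 to 66.3) and 37.1-fold lower than X2-PDPN (23.0 to 64.1). They share the CCR7-PDPN libraries and are given as a description, with log2 fold changes of -5.20 (SE 0.20) and -5.16 (SE 0.20), beside 5.67% and 6.4% of the 13314 genes called lower.

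**Figure D1:**
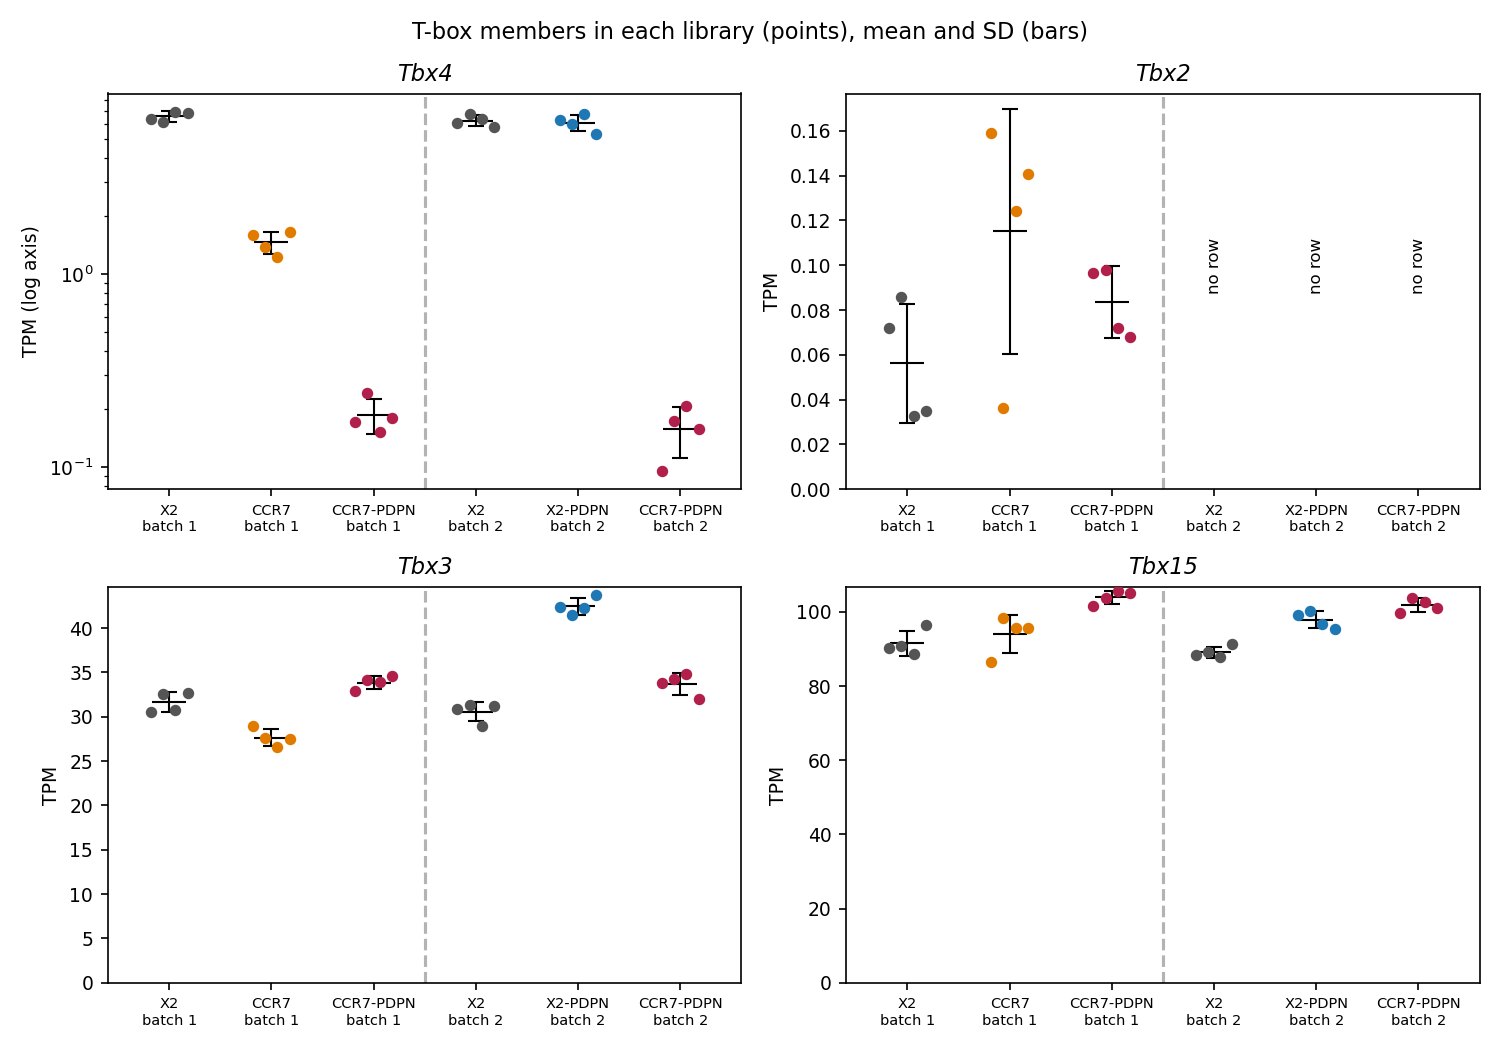
Level of each gene in TPM in the 24 libraries (points), with the mean and SD of each group of 4; the axis of Tbx4 is logarithmic and the others start at 0. Tbx4 sits at 5.35 to 6.97 TPM in X2 and X2-PDPN libraries, at 1.23 to 1.65 in CCR7 and at 0.0955 to 0.244 in CCR7-PDPN, whereas Tbx3 and Tbx15 stay within a narrow range and Tbx2, with no row in batch 2, is near 0.

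Tbx2 (ENSMUSG00000000093, chr11:85832551-85841948, plus strand) ends 44474 bases before Tbx4 begins. It was barely counted, with 2, 2, 1 and 1 counts in the X2 libraries of batch 1, 5, 1, 4 and 3 in CCR7 and 3, 3, 2 and 2 in CCR7-PDPN. The groups overlapped and most libraries had 3 counts or fewer, the floor under which no fold is given here. In batch 2 Tbx2 had no row and is reported as not detected there. The pair therefore differed in level in the vector control, Tbx4 at 6.58 TPM in X2 of batch 1 and Tbx2 at 0.0563 TPM.

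Tbx3 (ENSMUSG00000018604, chr5:119670669-119684724, plus strand, exonic length 6624 bases) is needed for the mammary gland to form and stood between Tbx4 and Tbx15 in level on the TPM scale. In batch 1 the 4 X2 libraries had 30.6, 32.6, 30.7 and 32.7 TPM, the 4 CCR7 libraries 28.9, 27.6, 26.6 and 27.5 TPM, and the 4 CCR7-PDPN libraries 32.9, 34.1, 33.9 and 34.6 TPM. The groups did not overlap, with CCR7 lowest and CCR7-PDPN highest. In batch 2 the X2 libraries had 30.9, 31.3, 29.0 and 31.2 TPM, those of X2-PDPN 42.4, 41.5, 42.3 and 43.8 TPM, and those of CCR7-PDPN 33.8, 34.3, 34.8 and 32.0 TPM. Every X2-PDPN library stood above the other 8 of its batch. How many of all genes separate in this way was not counted.

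Tbx3 was by the fit 1.38-fold higher in X2-PDPN than in X2 (log2 fold change 0.47, SE 0.04, adjusted p = 3.32e-15, quasi-likelihood test of edgeR, Benjamini-Hochberg adjusted), in 4 of 4 libraries. CCR7-PDPN cells had less of it than X2-PDPN cells by the same test (log2 fold change -0.31, SE 0.04, adjusted p = 3.89e-10). Neither passed the fold threshold. The adjusted p alone was under 0.05 for 56.8% and 63.2% of all genes in these comparisons, so passing it sets Tbx3 little apart from other genes. As a description, the log2 fold changes in the contrasts used for the choice of members were -0.20 (SE 0.04) for CCR7 against X2, 0.32 (SE 0.04) for CCR7-PDPN against CCR7, and 0.12 and 0.16 for CCR7-PDPN against X2 in batches 1 and 2. Tbx3os1, an antisense RNA, overlaps the exons of Tbx3 and had 4 to 40 counts a library, against 1070 to 2658 for Tbx3. Whether counting used strand is not given in the sources used here, and without strand reads of the pair cannot be told apart.

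Tbx15 (ENSMUSG00000027868, chr3:99240381-99354259, plus strand, exonic length 3747 bases) had the highest level of the 4 on the TPM scale. In batch 1 the X2 mean was 91.5 ± 3.37 TPM (SD, n = 4), that of CCR7 94.1 ± 5.15 and that of CCR7-PDPN 104 ± 1.74. In batch 2 the X2 mean was 89.1 ± 1.52 TPM, that of X2-PDPN 97.9 ± 2.22 and that of CCR7-PDPN 102 ± 1.87. X2 and CCR7 libraries overlapped, while CCR7-PDPN libraries lay above those of X2 in both batches. How many of all genes do so was not counted. Against X2, X2-PDPN was higher by 0.13 on the log2 scale (SE 0.03, adjusted p = 0.000314, quasi-likelihood test of edgeR, Benjamini-Hochberg adjusted), and the libraries did not overlap on the CPM scale. CCR7-PDPN was higher than X2-PDPN by 0.08 (SE 0.03, adjusted p = 0.0157, same test). The adjusted p was no longer under 0.05 without X2-PDPN replicate 3 (adjusted p = 0.0618, edgeR) or replicate 4 (adjusted p = 0.0554, edgeR). These libraries did not overlap on the CPM scale but did on the TPM scale. In the comparisons used for the choice of members the log2 fold changes were 0.04 for CCR7 against X2, 0.17 for CCR7-PDPN against CCR7, and 0.21 for CCR7-PDPN against X2 in each batch. In X2-PDPN against X2, 0 of the 3 members tested were called by edgeR or by DESeq2 (2 at an unadjusted p under 0.05), where 5.05% of all genes were, and in CCR7-PDPN against X2-PDPN, where 9.16% were, neither Tbx3 nor Tbx15 was called.

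**Figure D2:**
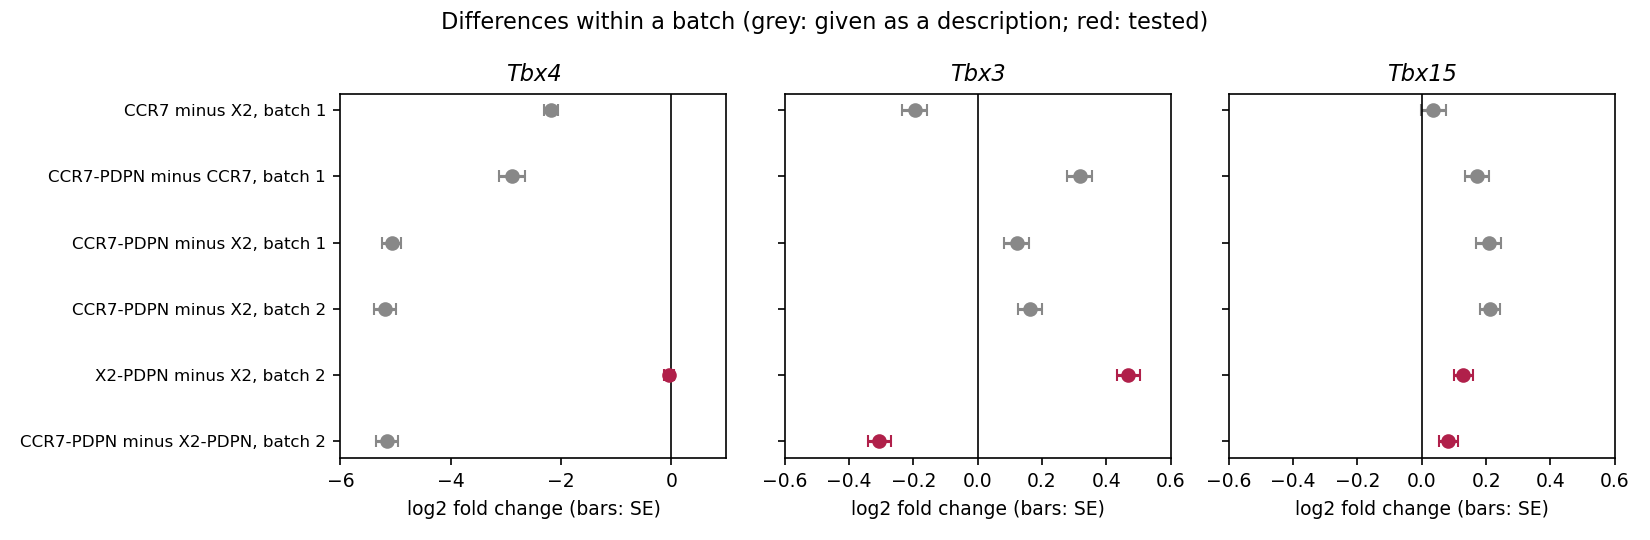
Log2 fold change of Tbx4, Tbx3 and Tbx15 in each of 6 comparisons within a batch, with bars for the SE; grey points are descriptions and red points were tested, and the axis of Tbx4 is wider than the others. Tbx4 lies between -2.18 and -5.20 in every comparison but X2-PDPN against X2, where it is at -0.04, and the other genes stay between -0.31 and 0.47.

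The members were also compared with each other. Over the 24 libraries, after the X2 mean of the batch was subtracted from log2 CPM, Pearson's r was -0.75 between Tbx4 and Tbx15, 0.48 between Tbx3 and Tbx15 and 0.05 between Tbx3 and Tbx4. The libraries fall into 6 groups and share the batch X2 mean, so these values describe the groups.

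Of the 13 other T-box genes, 3 (Tbx5, Tbx18 and Tbx20) had 0 counts in every batch 1 library, and 5 (T, Tbr1, Eomes, Tbx19 and Tbx22) reached 10 counts or fewer. Tbx10 reached 12, and 4 passed the filter on low counts. Mga, which pairs a T-box with a domain for dimers with Max, had group means of 22.0 to 32.1 TPM, and Tbx1, a factor of the pharyngeal arches, had 27.3 to 38.7 TPM. Tbx6, of the presomitic mesoderm, had 1.08 to 2.08 TPM, and Tbx21, which directs type 1 helper T cells, had 0.348 to 1.37 TPM. With Tbx3 and Tbx15, Mga and Tbx1 were thus the T-box genes with the highest levels per length.

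Of the 4 tested among the 13 other T-box genes, only Tbx21 was called in any comparison. Between X2-PDPN and X2 it differed by a log2 fold change of 1.14 (SE 0.29, adjusted p = 0.000948, quasi-likelihood test of edgeR, Benjamini-Hochberg adjusted) and -1.86 in CCR7-PDPN against X2-PDPN (SE 0.33, adjusted p = 4.32e-06, edgeR), at 3 to 39 counts a library. In batch 1 it was called lower in CCR7 (-1.26, adjusted p = 0.00661, edgeR) and in CCR7-PDPN (-1.08, adjusted p = 0.0116, edgeR) than in X2, with overlapping libraries in the first case. In batch 2 the CCR7-PDPN and X2 libraries overlapped and it was not called (-0.72, adjusted p = 0.105, edgeR). Over all genes, 5.05% were called in X2-PDPN against X2 and 9.16% in CCR7-PDPN against X2-PDPN. In batch 1, 6.48% of all genes were called in CCR7 and 9.45% in CCR7-PDPN against X2. Tbx1 had log2 fold changes against X2 of -0.42 in CCR7, -0.32 and -0.33 in CCR7-PDPN of batches 1 and 2, and -0.24 in X2-PDPN. Each had an adjusted p under 0.05 (edgeR) and was below the fold threshold. The Tbx1 libraries of X2-PDPN and X2 overlapped. Mga was higher in X2-PDPN than in X2 (0.29, adjusted p = 0.00329, edgeR) and lower in CCR7-PDPN than in X2-PDPN (-0.47, adjusted p = 0.000112, edgeR). The adjusted p alone was under 0.05 for 60.9% and 64.8% of all genes in CCR7-PDPN against X2 of batches 1 and 2. It was so for 56.8% in X2-PDPN against X2 and 63.2% in CCR7-PDPN against X2-PDPN. In CCR7 against X2, 6534 of 13261 genes passed it. Passing it therefore sets Tbx1 and Mga little apart from other genes. Tbx6 in CCR7-PDPN had -0.88 against X2 of batch 2 (adjusted p = 0.00191, edgeR) and -0.83 against X2-PDPN (adjusted p = 0.00332, edgeR). In batch 1 it had -0.16 against X2 (adjusted p = 0.591, edgeR), with overlapping libraries. Between X2-PDPN and X2 it had -0.05 (adjusted p = 0.863, edgeR). The median log2 fold change of the 4 was 0.12 in X2-PDPN against X2 and -0.65 in CCR7-PDPN against X2-PDPN, beside 0.00116 and 0.000135 over all genes.

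**Figure D3:**
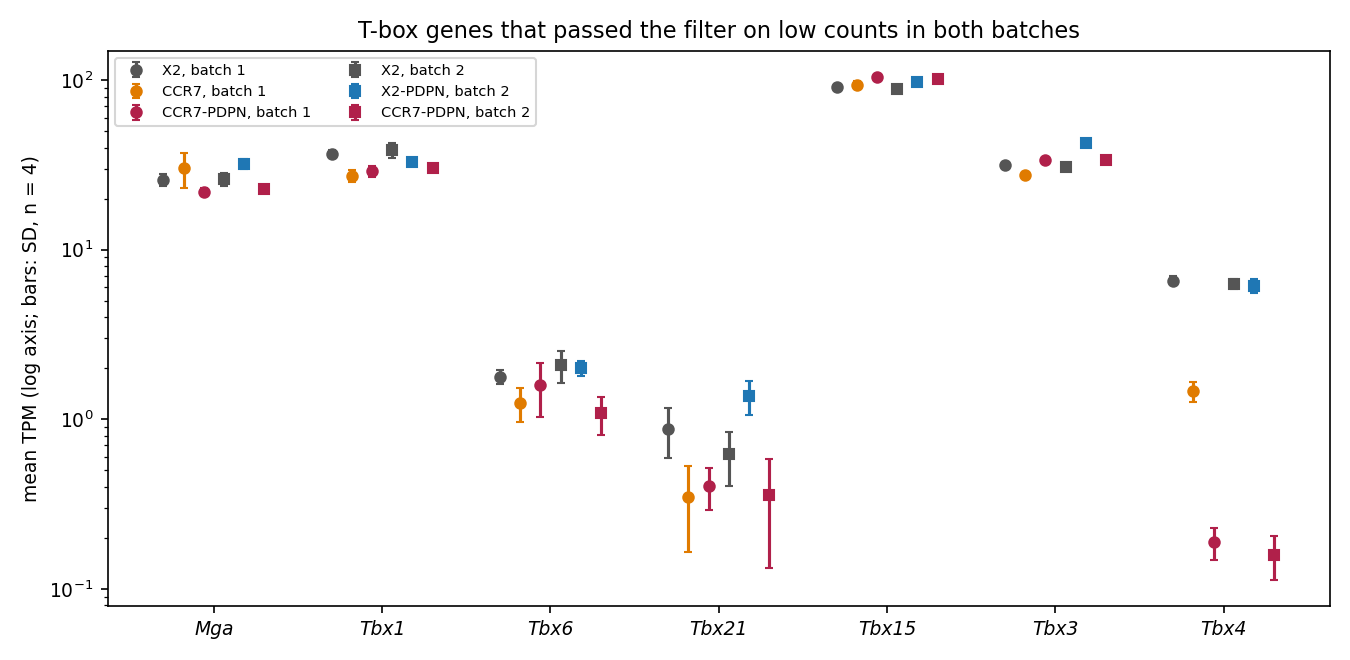
Mean level in TPM (log axis) of the 7 T-box genes that passed the filter on low counts in both batches, by population and batch, with bars for the SD of 4 libraries. Tbx15 is highest at 89.1 to 104 TPM, Tbx3, Tbx1 and Mga lie between 22.0 and 42.5, and Tbx4 spans 0.159 to 6.58.

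Genes listed as targets of Tbx2 and Tbx3 were read next. Of the 8 listed, Cdkn2a, Cdkn2b (inhibitors of the cell cycle) and Has2 (hyaluronan synthase) had 0 counts in every batch 1 library, and Cdh1 (E-cadherin) had at most 7. The other 4 were tested, and 0 were called in any of the 6 comparisons by edgeR or DESeq2, with 2 to 4 at an unadjusted p under 0.05. Over all genes 6.48%, 3.27% and 9.45% were called in batch 1 (CCR7 against X2, CCR7-PDPN against CCR7 and CCR7-PDPN against X2), and 9.63% in CCR7-PDPN against X2 of batch 2. By the adjusted p alone, 2 of 4 were below and 0 above X2 in X2-PDPN, where 56.8% of all genes passed: Gja1 (connexin 43, log2 fold change -0.13, SE 0.03) and Ndrg1 (a stress-responsive gene, -0.18, SE 0.03). In CCR7-PDPN against X2-PDPN, Gja1 was higher by 0.10 on the log2 scale and Ndrg1 was lower by a log2 fold change of -0.34, where 63.2% of all genes passed. Cdkn1a (p21) had 64.4 to 84.2 TPM across libraries and was 0.17 higher on the log2 scale in CCR7 than in X2 (adjusted p = 0.00179, edgeR) and fell from CCR7 to CCR7-PDPN (-0.18, adjusted p = 0.00111, edgeR). Of the 4 target genes with a RefSeq window, 1 held this T-box element. It was in 1 of the 2 windows of Cdkn1a, 14 bases from the start (counting the start as 1), at chr17:29093771-29093800 on the plus strand (RefSeq, GRCm38.p6). It is printed with its flanks because Cdkn1a is the target with a known T-box element, and capitals mark the element.
Cdkn1a start: cagcagccgagAGGTGTGAgccgccgcggt

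Of 11 genes that act before, with or after Tbx4 in limb and lung mesenchyme, 7 had 0 counts in every batch 1 library, among them Isl1, Fgf10, Wnt2, Foxf1, Bmp4 and Hand2. Pitx1, the hindlimb factor upstream of Tbx4, had at most 2 counts. The 3 that were tested were Prrx1, Shox2 and Wnt2b. Prrx1, a homeobox factor of limb mesenchyme, fell in the order X2, CCR7, CCR7-PDPN in batch 1, where X2 cells had 4.28 ± 0.211 TPM (SD, n = 4), CCR7 cells 0.898 ± 0.234 and CCR7-PDPN cells 0.170 ± 0.0420. In batch 2 the X2 cells had 4.44 ± 0.351 TPM, the X2-PDPN cells 3.68 ± 0.0441 and the CCR7-PDPN cells 0.272 ± 0.0501. Its groups did not overlap in any comparison, and the share of all genes with no overlap was not counted. Against X2, CCR7 had a log2 fold change of -2.27 (SE 0.12). CCR7-PDPN had -2.34 against CCR7 (SE 0.21) and -3.74 against X2-PDPN (SE 0.12). The 3 differences had adjusted p = 9.16e-13, 1.55e-08 and 3.5e-29 by edgeR's Benjamini-Hochberg adjusted quasi-likelihood test. Over all genes 3.18%, 2.6% and 6.4% were called lower in these comparisons. In X2-PDPN against X2 Prrx1 was lower by a log2 fold change of -0.28 (SE 0.07, adjusted p = 0.000514, edgeR), below the fold threshold. Beside Prrx1, Tbx4 had -2.18, -2.89, -5.16 and -0.04 in the same comparisons. The list was drawn up with earlier results of these data known, and a link between the 2 genes was not tested. Shox2, of the proximal limb, stayed at 23.2 to 29.2 TPM and was not called. Wnt2b, a secreted Wnt ligand, was called higher in CCR7 than in X2 of batch 1 (1.32, adjusted p = 0.000803, edgeR). It was also called higher in CCR7-PDPN than in X2 of batch 1 (1.69, adjusted p = 2.4e-05, edgeR), at 4 to 35 counts a library. The shares of all genes called in either direction there were 6.48% and 9.45%. In batch 2 Wnt2b was not called, with 0.85 in CCR7-PDPN (adjusted p = 0.00953, edgeR) and 0.73 in X2-PDPN (adjusted p = 0.0303, edgeR) against X2.

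None of the genes tested around Tbx4 was called. Of 40 genes that start within 1 Mb of the Tbx4 start, members apart, 18 were tested and 0 passed in any of the 6 comparisons by edgeR or by DESeq2, with 6 to 11 at an unadjusted p under 0.05. By the adjusted p alone, CCR7-PDPN had 2 above and 4 below X2 in batch 1, where 60.9% of all genes passed, and 2 above and 6 below in batch 2, where 64.8% did. Against X2-PDPN, CCR7-PDPN had 2 above and 9 below, with a median log2 fold change of -0.11 beside 0.000135 over all genes, where 63.2% passed. Against X2, their log2 fold changes ran from -0.29 to 0.35 and from -0.28 to 0.36, beside -5.07 and -5.20 for Tbx4. The nearest expressed genes were Bcas3, which ends before Tbx2, with -0.10 and -0.14, and Brip1, a DNA repair helicase, with -0.21 and -0.13.

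**Figure D4:**
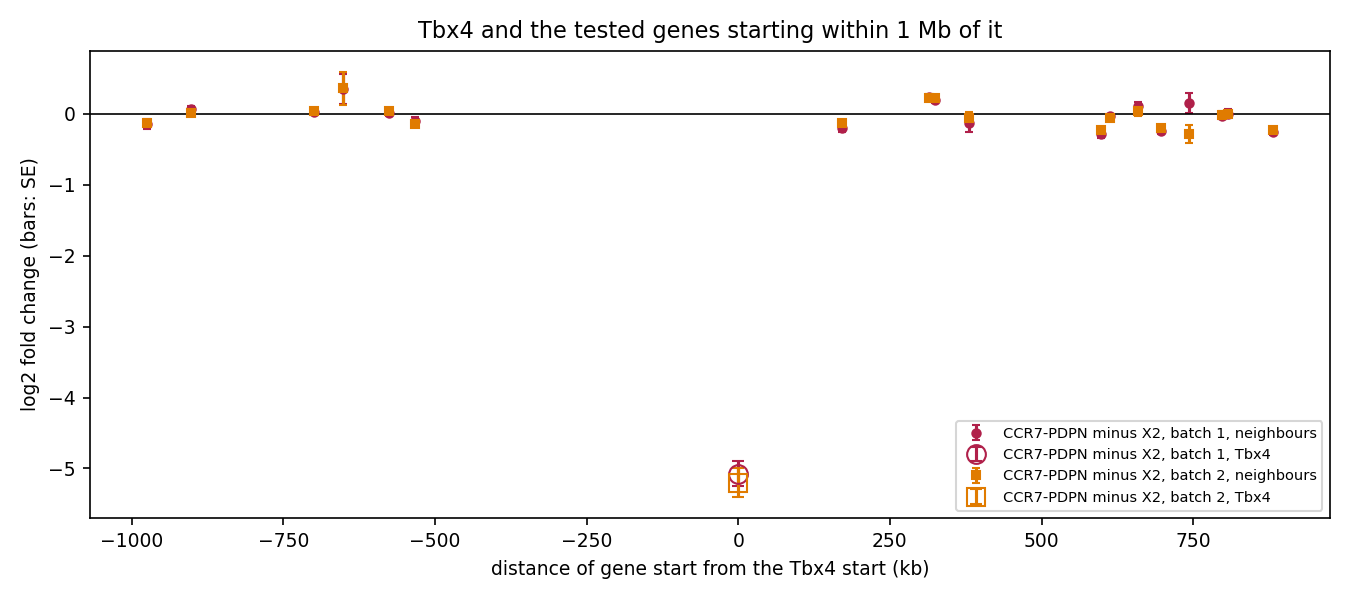
Log2 fold change between CCR7-PDPN and X2 (bars: SE) against the distance of each gene's start from that of Tbx4, for the 18 tested genes within 1 Mb in batches 1 and 2, with Tbx4 as open symbols at 0. The neighbours lie between -0.29 and 0.36, and Tbx4 at -5.07 and -5.20.

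The genes most like Tbx4 were sought by Pearson's r of the same log2 CPM values over 24 libraries, among 10532 genes present in both tables. They were Lrrc8c (a subunit of volume-regulated anion channels, r = 0.9957), Shank2 (a scaffold of synapses, 0.9917), Lyz2 (lysozyme, 0.9847), Rab27b (a GTPase of vesicle release, 0.9839) and Abcc4 (an exporter of cyclic nucleotides, 0.9837), none of them on chromosome 11. They share the order X2, CCR7, CCR7-PDPN but not the size of the change. Lrrc8c had 14.35, 8.96 and 5.29 TPM in batch 1 and Shank2 4.74, 1.71 and 0.459. In X2-PDPN, Lrrc8c had 14.0 TPM beside 14.7 in X2 and Shank2 5.90 beside 5.00. The genes most like Tbx3 were Map2k3 (a kinase that activates p38, r = 0.9697), Acss2 (an acetyl-CoA synthetase, 0.9596) and Mavs (an antiviral adaptor, 0.9594), each highest in X2-PDPN. Those most like Tbx15 were Dclre1b (a nuclease of telomeres, 0.937), Irf8 (a myeloid transcription factor, 0.9205) and Ptp4a2 (a phosphatase, 0.917). The points of each r are libraries of 6 groups.

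**Figure D5:**
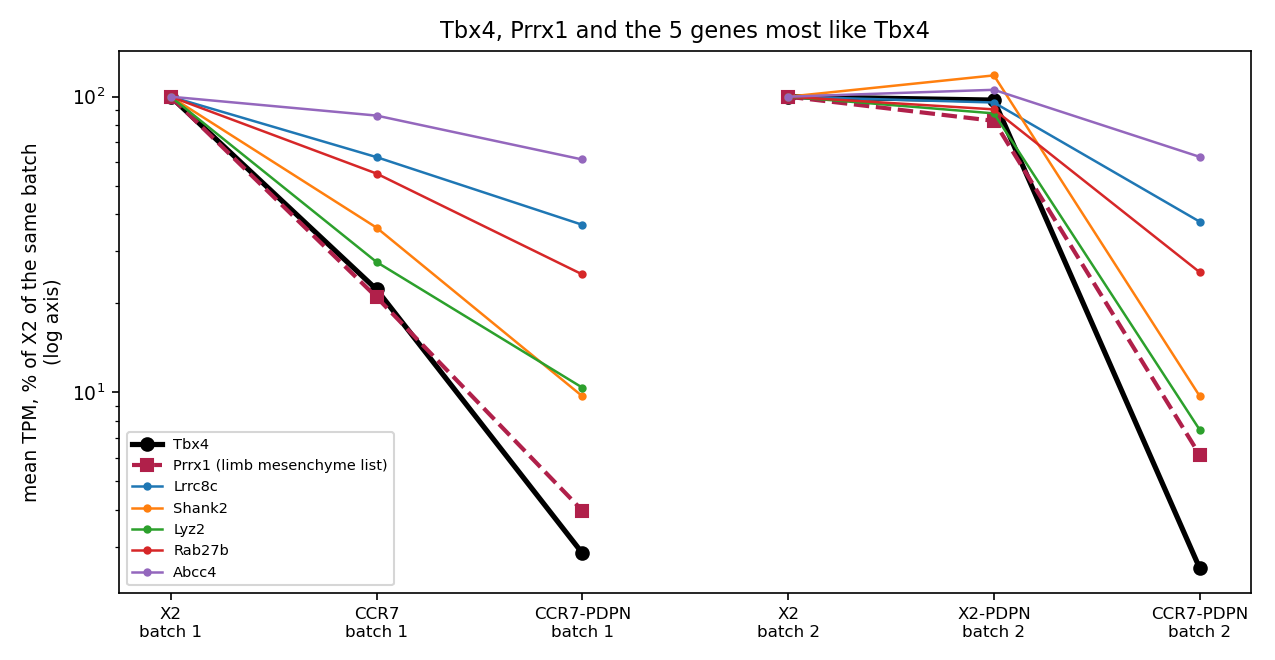
Mean TPM of Tbx4, Prrx1 and the 5 genes most like Tbx4, as a percentage of X2 of the same batch (log axis), for each population. Tbx4 drops to 22.3% in CCR7 and 2.85% in CCR7-PDPN of batch 1, is at 97.4% in X2-PDPN, and Lrrc8c and Abcc4 follow the same order with smaller changes.

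Markers of other cell types were read beside the Tbx4 result. Of the 6 listed, Ptprc (leukocytes) and Dcn (fibroblasts) had at most 4 and 3 counts in batch 1, and Pecam1 and Cdh5 (endothelium) at most 18 counts in any library. Pdgfra, of fibroblasts, had 52.1 to 69.9 TPM. Cd68, a lysosomal protein abundant in macrophages, had 141 ± 10.3, 50.1 ± 7.04 and 27.8 ± 3.53 TPM (SD, n = 4) in the X2, CCR7 and CCR7-PDPN cells of batch 1, and 136 ± 7.40, 63.0 ± 5.31 and 26.1 ± 4.03 TPM in X2, X2-PDPN and CCR7-PDPN of batch 2. It thus fell in the order of Tbx4 in batch 1, and in X2-PDPN it was lower than in X2, where the Tbx4 libraries of these populations overlapped. Of the 4 markers tested, 1 (Cd68) was called in CCR7-PDPN against X2 in each batch, where 9.45% and 9.63% of all genes were. In X2-PDPN against X2, 3 were called, where 5.05% of all genes were. These were Cd68 (log2 fold change -1.11), Pecam1 (1.14) and Cdh5 (lower). The libraries overlapped for Pecam1 and Cdh5. No fold is given for Cdh5, which had 1 to 6 counts in X2-PDPN libraries. In CCR7-PDPN against X2-PDPN, 2 were called (Cd68 at -1.25 and Cdh5 higher), where 9.16% of all genes were. Summed over the markers listed in each batch, libraries of batch 1 ranged over 191 to 216 TPM (X2 cells), 99.7 to 116 (CCR7 cells) and 81.2 to 85.5 (CCR7-PDPN cells), and those of batch 2 over 191 to 207 (X2 cells), 124 to 134 (X2-PDPN cells) and 81.5 to 87.8 (CCR7-PDPN cells). Cd68 and Pdgfra made up nearly all of these sums. Pdgfra group means stayed at 55.2 to 67.5 TPM, so the sums differed mainly by Cd68. The part of these markers in the results for Tbx4 and Tbx3 was not tested.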

How the data were processed

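The authors sequenced single-end reads of 75 bp from stranded libraries, mapped them to GRCm38 (mm10 per the labels) and deposited raw counts per Ensembl gene, 1 table per batch, without normalization. The aligner, the strand setting of the counting and the filter that left 13915 genes in batch 2 are not given in the sources used here. The study's methods state that clones were not selected, while the series description speaks of subclones.

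Counts were scaled by TMM and fitted within a batch, over its 3 groups, with edgeR 4.0.16 in R 4.3.3 (filterByExpr, robust quasi-likelihood fit, Benjamini-Hochberg adjustment over 13261 or 13314 genes). Calls needed more than 1 log2 unit of change, in either direction, with an adjusted p under 0.05. The share of all genes whose libraries do not overlap between groups was not counted, so a lack of overlap does not set a gene apart. TPM used the exonic lengths of the deposited table. CPM used the library total of the genes kept by the filter, scaled by TMM, and log2 CPM added a prior count of 2. Intervals on summed counts cover counting error, and a count of 0 allows up to 3. Gene coordinates came from the deposited table of batch 1 and the Tbx4 transcripts from GENCODE M21. Sequences came from RefSeq, which gave a window for 1 of the 4 members. Genes most like a member had a mean log2 CPM of at least 1.

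The members and gene lists were chosen with earlier results of these data known. Named were the members, Ccr7 and Pdpn, the listed genes that passed the filter, the nearest expressed genes beside Tbx4, and the 5 or 3 genes most like a member. Some listed genes are counted but not reported here by name. Alternatives were DESeq2 1.42.0, RLE factors, no filter on low counts, a replicate block, only the compared groups, no fold threshold and each library left out. On simulated data with 200 genes changed by 2 on the log2 scale, 198 were recovered in CCR7 against X2 of batch 1 (13261 genes) and 196 in CCR7-PDPN against X2 of batch 2 (13314 genes). False calls were 0 and 2. The simulation gave all genes 1 fixed spread between libraries, so it checks the procedure and does not measure power for these data. Python 3.11.15 with pandas 2.3.3 and matplotlib 3.10.9 made tables and figures.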

Additional observations from a re-analysis of the deposited data

Results flagged for a closer look

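In 2 groups of batch 2 the lowest Tbx3 library stood far from the others of its group. CCR7-PDPN had a library at 57.96 CPM beside 61.33 to 61.99 in the other 3, a gap of 0.836 of the group's range. X2 had a library at 50.98 CPM beside 55.05 to 55.71, a gap of 0.86 of the range. With 21 groups of 4 libraries examined, chance flags about 1 in 20.

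Gja1 had values of opposite sign with no overlap of libraries, at -0.08 on the log2 scale in CCR7 against X2 of batch 1, which did not pass (adjusted p = 0.0534, edgeR), and at 0.10 in CCR7-PDPN against X2-PDPN of batch 2 (adjusted p = 0.00175, edgeR). The difference between these effects was not tested.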

How the results depend on the processing

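Without the fold threshold the calls rose from 859, 433 and 1253 to 6534, 5513 and 8071 genes in batch 1 (CCR7 against X2, CCR7-PDPN against CCR7, CCR7-PDPN against X2) and from 1282, 673 and 1219 to 8626, 7560 and 8411 in batch 2 (CCR7-PDPN against X2, X2-PDPN against X2, CCR7-PDPN against X2-PDPN). With no filter on low counts, 1891 genes were called in CCR7-PDPN against X2 of batch 1 (the cause was not tested). Tbx15 in CCR7-PDPN against X2-PDPN ran from 0.0692 to 0.0989 on the log2 scale with each library left out. Its adjusted p (edgeR) was no longer under 0.05 without X2-PDPN replicate 3 or 4. Likewise, Tbx4 in X2-PDPN against X2 ran from -0.083 to 0.0075, turning sign without X2-PDPN replicate 4 (the cause was not tested). Among the tested values of Tbx3, Tbx4 and Tbx15, no other alternative moved the adjusted p to the other side of 0.05. Without the fold threshold, Tbx3 and Tbx15 passed in X2-PDPN against X2 and in CCR7-PDPN against X2-PDPN. Tbx4 did not pass in X2-PDPN against X2. The alternatives were not run for Tbx21, Prrx1 and Wnt2b. Same-numbered libraries of different groups did not deviate together (r -0.12 to 0.106 over 24 pairs, 6 best with their own number). With the number as a replicate block, 854, 429, 1248, 1281, 671 and 1223 genes were called in the same order. Depth limits Tbx2 throughout and Tbx4 in CCR7-PDPN, at 2 to 7 counts a library.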
